A study of Bos taurus with 96 samples.

Results

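TNFRSF10D (ENSBTAG00000047389), TNFRSF12A (ENSBTAG00000012082) and TNFRSF6B (ENSBTAG00000027407) are 3 receptor genes of the tumour necrosis factor (TNF) family, taken by identifier from the 24616 genes counted in every library. Their expression was followed within cows from late pregnancy (LP, before calving) to early lactation (EL, shortly after calving) and mid-lactation (ML). RNA from liver and muscle biopsies of 16 Holstein cows was sequenced at each time-point, which gave 96 libraries. The cows were 8 animals of good (Fert+) and 8 of poor (Fert-) genetic merit for fertility, kept as a single herd with no treatment given, and the labels give no age. Fert+ and Fert- are differences in breeding value and not a single allele. Each cow gave 1 punch of liver and 1 of semitendinosus muscle per time-point, so that calving, season and stage of lactation cannot be told apart in the time course.

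TNF receptors sit on the cell surface, bind ligands of the TNF family as trimers, and pass the signal to NF-kB and MAP kinase pathways or, where the receptor has a death domain, to caspases. Some members are decoys that bind ligand and pass on no death signal. TNFRSF12A, also called Fn14, is the receptor for TWEAK, has no death domain and is known to be induced by injury and growth factors, in muscle also by disuse. TNFRSF6B is known in man as decoy receptor DcR3, a secreted protein that binds FasL, LIGHT and TL1A. TNFRSF10D is named after the human TRAIL receptor whose death domain is truncated, and the functions of the bovine products were not measured here. In the RefSeq gene table for the assembly ARS-UCD2.0, which is not the build of the counts, TNFRSF12A overlaps CLDN6, TNFRSF6B lies between ARFRP1 and RTEL1, and TNFRSF10D is not placed on a chromosome. The library kit does not keep the strand, so read pairs from overlapping genes cannot be assigned by strand.

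Libraries held between 14966847 and 26358063 read pairs in liver and between 15279337 and 22018740 in muscle. Levels are given in CPM, the read pairs of a gene divided by the total of its library after TMM scaling (edgeR, within a tissue), with no correction for gene length, so levels are compared within a gene only. The 12 hepatocyte markers summed to between 98096 and 299117 CPM in liver and at most 206.4 CPM in muscle. The 12 skeletal muscle markers summed to between 39696 and 319183 CPM in muscle and at most 39.6 CPM in liver. There are 13 libraries (8 of liver, 5 of muscle) named batch B here. They held at least 50 read pairs on 11 or more of 19 genes that are near 0 elsewhere. The other 83, named batch A, did so on at most 3 of them. The groups were drawn from the counts alone, as the labels name no batch, and their origin was not tested. The liver EL library of Fert+ cow 3847 is in batch B and stands apart. Of 13406 genes, 982 were at least 4-fold away from the median of the other 15 liver EL libraries, where the 16 libraries had a median of 38 such genes and the next, that of Fert- cow 164, had 184. The muscle EL library of cow 3847 is not in batch B. Values at EL that move with this cow are therefore also given without it, where they were recomputed.

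**Figure D1:**
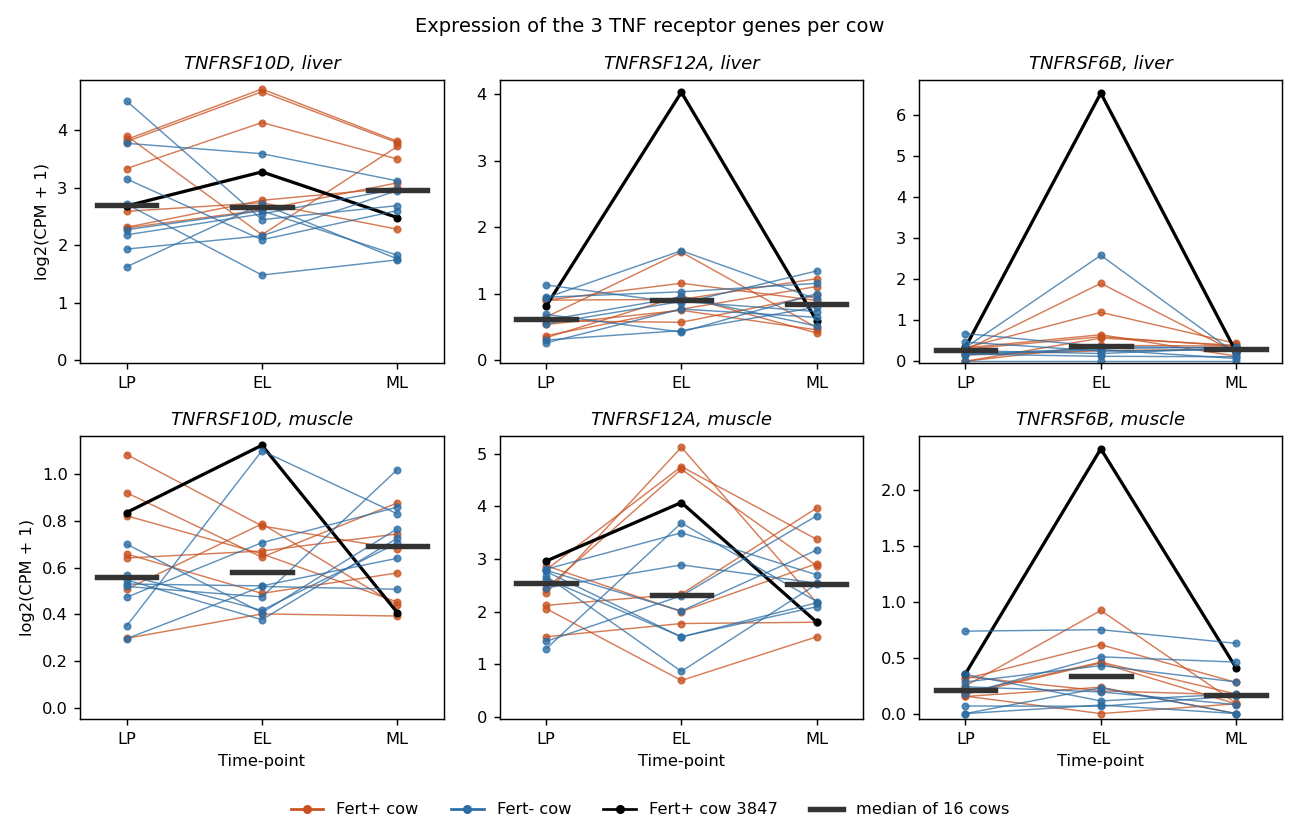
Expression of TNFRSF10D, TNFRSF12A and TNFRSF6B as log2(CPM + 1) at LP, EL and ML in liver (top) and muscle (bottom), with 1 line per cow and a bar at the median of 16 cows; the vertical scales differ between panels. Cow 3847 (black) reached 91.4 CPM of TNFRSF6B in liver at EL, while the medians of this gene stayed between 0.203 and 0.295 CPM in liver.

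TNFRSF6B, the decoy receptor, was low in both tissues before calving and in mid-lactation, and at EL it was high in a few cows. In liver it ranged at LP from 0 to 0.597 CPM with a median of 0.203. At EL it ranged from 0 to 91.4 CPM with a median of 0.295, and at ML from 0 to 0.351 CPM with a median of 0.225. The EL values were carried by 4 cows: Fert+ cow 3847 had 1947 read pairs (91.4 CPM), Fert- cow 164 had 4.98 CPM, Fert+ cow 782 had 2.73 CPM and Fert+ cow 756 had 1.29 CPM. The other 12 cows had at most 0.566 CPM at EL, within the range of the LP values. Cow 3847 alone held 88.2% of the summed CPM of the 16 liver EL libraries, after 0.269 CPM at LP and before 0.168 CPM at ML.

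From LP to EL TNFRSF6B in liver was higher in 11 cows, lower in 4 and equal in 1 (mean difference in log2(CPM + 1) 0.76 ± 1.60, SD, n = 16; exact sign-flip permutation test over cows, two-sided p = 0.0111). Without cow 3847 it was higher in 10 of 15 cows, with a mean difference of 0.40 and an exact p of 0.0222. With each cow as a block, edgeR's quasi-likelihood test over all genes gave a log2 fold change of 2.36 (standard error 0.67) and an adjusted p of 0.0751, which missed the threshold of 0.05. It passed it without Fert- cow 426, the cow with the highest LP value (2.75, adjusted p = 0.0190), and not without any other cow, the value falling to 1.55 without cow 3847. From EL to ML the gene fell by 2.16 on the log2 scale (standard error 0.65, adjusted p = 0.0131 with edgeR's quasi-likelihood test), and this held whichever cow was left out (between -2.35 and -1.37, the smallest fall without cow 3847). In single cows it was lower at ML in 11, higher in 4 and equal in 1 (exact permutation p = 0.00848, and 0.0170 without cow 3847). ML and LP did not differ beyond the spread between cows (0.21, standard error 0.78, adjusted p = 0.917 with edgeR's test, where 8.87% of genes were called). In the 40 liver libraries outside batch B the values were 1.61 for EL vs LP (adjusted p = 0.256) and -1.93 for ML vs EL (adjusted p = 0.00733).

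In muscle too the median was highest at EL. TNFRSF6B in muscle ranged from 0 to 0.666 CPM (median 0.159) at LP, from 0 to 4.15 CPM (median 0.262) at EL and from 0 to 0.545 CPM (median 0.120) at ML. The highest EL value was again that of cow 3847, with 88 read pairs, and the next was 0.894 CPM in Fert+ cow 3445. It rose from LP to EL by 1.08 on the log2 scale (standard error 0.35, adjusted p = 0.0122 with edgeR's quasi-likelihood test). This call was lost without cow 3847, where the value was 0.68 and the adjusted p 0.112, and it was kept without each of the other 15 cows. From EL to ML it fell by 1.45 (standard error 0.36, adjusted p = 0.00108), and it fell by 1.07 without cow 3847 (adjusted p = 0.0107), the smallest fall over the cows left out. Within cows it was higher at EL than at LP in 11 of 16 (exact permutation p = 0.0286, and 0.0573 without cow 3847), and lower at ML than at EL in 13 of 16 (p = 0.00244, and 0.00488 without that cow, by the same exact test). In the 43 muscle libraries outside batch B the values were 1.25 (adjusted p = 0.00906) and -1.72 (adjusted p = 5.6e-04).

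These TNFRSF6B values rest on few reads. Its median count was 5 read pairs per library in liver and 3 in muscle, it was under 10 in 40 of 48 liver and 41 of 48 muscle libraries, and at 0 in 5 and 6. A count of 0 allows up to 3 read pairs, counting error only. The gene filter of edgeR removed it from the time course of both tissues, so that 2 of the 3 genes passed and the TNFRSF6B values come from the fit with no gene filter. In that fit 0.966% of 19976 genes in liver were called between LP and EL and 27.9% between EL and ML. In muscle 37.3% of 19523 genes were called between LP and EL and 42.5% between EL and ML (5.77% between LP and ML), so a call there is common among all genes.

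The spread of TNFRSF6B between cows was wider at EL than at the other time-points. In liver the LP, EL and ML libraries had SDs of log2(CPM + 1) of 0.178, 1.63 and 0.127. An exact test that swapped the time-points within cows, chosen after the values were seen, gave p = 3.1e-05 for EL vs LP and for ML vs EL, the smallest p that 16 cows allow, and 0.0127 and 6.1e-04 without cow 3847. In muscle the SDs were 0.175, 0.567 and 0.179 (permutation p = 0.0376 and 0.0308). There the same permutation test missed 0.05 without cow 3847 (p = 0.110 and 0.0825). The 1 added to CPM before the log keeps SDs small at levels this low. On CPM the coefficient of variation in liver was 77.8% at LP, 350.3% at EL (164.6% without cow 3847) and 52.3% at ML. In muscle it was 83.9%, 185.2% and 100.5%, and without cow 3847 it was 88.7%, 86.4% and 107.3%. The spread test was not repeated with another pseudocount.

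TNFRSF12A, the TWEAK receptor, was lower in liver than in muscle in all 16 cows at LP and at ML, and in 14 of 16 at EL, the exceptions being cows 1000 and 3434. In liver its range was 0.196 to 1.19 CPM (median 0.540) at LP, 0.338 to 15.3 CPM (median 0.861) at EL and 0.325 to 1.53 CPM (median 0.798) at ML. Cow 3847 again held the highest EL value, 15.3 CPM from 326 read pairs, and Fert- cow 164 with 2.13 CPM and Fert+ cow 756 with 2.08 CPM came next. All other liver values at EL were at most 1.23 CPM.

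Liver TNFRSF12A was higher at EL than at LP in 13 of 16 cows, by a mean of 0.45 ± 0.81 on the log2(CPM + 1) scale (SD, n = 16, exact permutation p = 0.00449). Without cow 3847 it was higher in 12 of 15 cows, by 0.27 (exact p = 0.00897). The blocked fit across all genes gave 1.04 (standard error 0.33) with an adjusted p of 0.0714 by edgeR's quasi-likelihood test, so the gene was not among the 2.48% of 13406 genes called there. It passed in 1 of the 16 fits that leave out a cow, that without Fert- cow 426 (adjusted p = 0.0349), with log2 fold changes between 0.70 (without cow 3847) and 1.15. DESeq2 gave 1.02 with an adjusted p of 0.0267, and the batch A libraries alone 0.78 with an adjusted p of 0.212. From EL to ML the change was -0.50 (standard error 0.32, adjusted p = 0.201 with edgeR's test, where 42.3% of genes were called), and -0.15 without cow 3847 (adjusted p = 0.615). The ML level was higher than the LP level in 10 of 16 cows, with a log2 fold change of 0.54 (standard error 0.33, adjusted p = 0.275, where 15.4% of genes were called; exact permutation p = 0.0189 for the mean within-cow difference of 0.17).

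In muscle TNFRSF12A spread out after calving in both directions. Its range was 1.44 to 6.78 CPM (median 4.82) at LP, 0.610 to 34.0 CPM (median 3.98) at EL and 1.86 to 14.7 CPM (median 4.78) at ML. At EL the highest values were 34.0 CPM in cow 782, 26.1 in cow 430, 25.2 in cow 756 and 15.9 in cow 3847, all Fert+, followed by 11.9 CPM in cow 419 and 10.3 in cow 164, both Fert-. The lowest were 0.610 CPM in Fert+ cow 3434 and 0.816 CPM in Fert- cow 1000, both below every LP and ML value. The SDs of log2(CPM + 1) were 0.542 for the LP, 1.42 for the EL and 0.719 for the ML libraries. The ratio of EL to LP was 2.61 (permutation p = 0.00339, and 0.00647 without cow 3847), and that of ML to EL was 0.508 (p = 0.0170, and 0.0302 without this cow), by the test that swaps time-points within cows.

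The mean level of muscle TNFRSF12A did not differ between time-points beyond the spread between cows. It was higher at EL than at LP in 10 of 16 cows, with a log2 fold change of 0.58 (standard error 0.41, adjusted p = 0.228 with edgeR's quasi-likelihood test, where 58.3% of 12304 genes were called). From EL to ML it changed by -0.29 (standard error 0.41, adjusted p = 0.550, with 63.7% called), and 9 of 16 cows were higher at ML. Between LP and ML it was 0.29 (standard error 0.41, adjusted p = 0.703, with 9.1% called). Leaving out cow 782 moved the EL vs LP value to 0.34 and the ML vs EL value to -0.039, and leaving out cow 1179 moved ML vs LP to 0.091. Without the batch B libraries EL vs LP was 0.36 (adjusted p = 0.515).

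**Figure D2:**
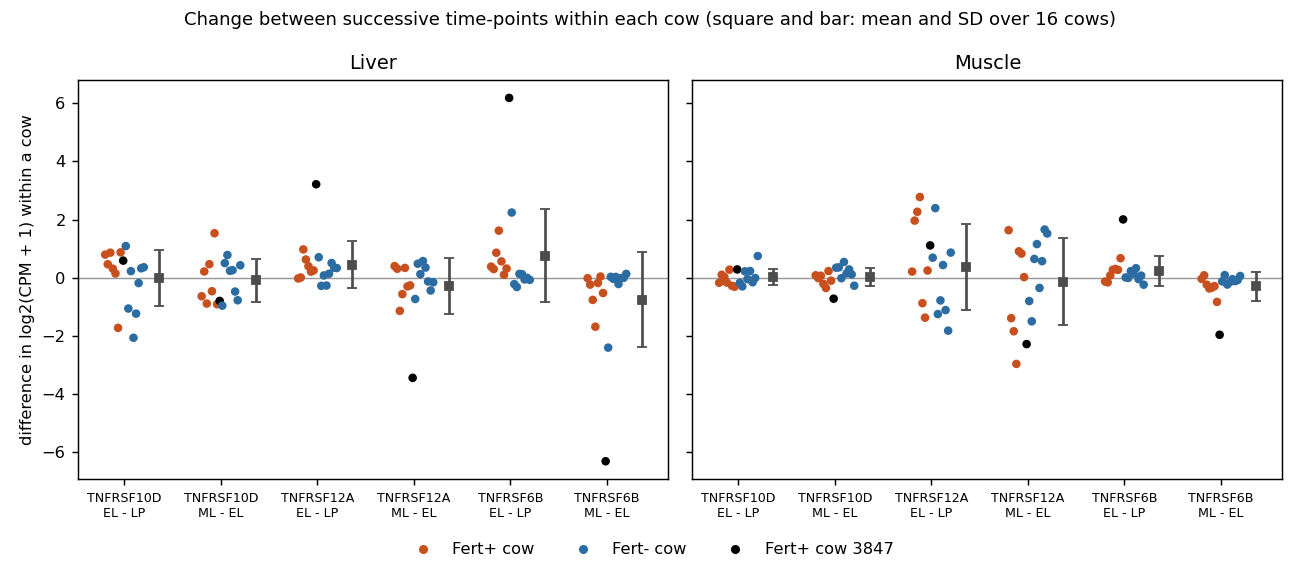
Difference in log2(CPM + 1) between successive time-points within each of 16 cows (points, coloured by genotype, cow 3847 in black) for the 3 genes in liver and muscle; squares and bars give the mean and SD. TNFRSF6B in liver differed from LP to EL by 6.19 in cow 3847 and by at most 2.25 in the others, and TNFRSF12A in muscle went both up and down.

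TNFRSF10D, named for a truncated TRAIL receptor, was higher in liver than in muscle. Its liver level was above the muscle level in all 16 cows at each time-point and the ranges of the tissues did not overlap. In liver it ranged from 2.09 to 21.7 CPM (median 5.49) at LP, 1.796 to 25.2 CPM (median 5.35) at EL and 2.36 to 12.99 CPM (median 6.80) at ML. In muscle it ranged from 0.227 to 1.12 CPM (median 0.472), 0.298 to 1.18 CPM (median 0.499) and 0.312 to 1.03 CPM (median 0.616), from 4 to 28 read pairs a library. The most extreme liver values were 25.2 CPM in cow 3445 and 24.4 CPM in cow 756 at EL, both Fert+, and 21.7 CPM in Fert- cow 829 at LP, which had 4.45 CPM at EL.

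No time contrast of TNFRSF10D passed the test in either tissue. In liver edgeR's log2 fold changes were 0.01 for EL vs LP (standard error 0.23, adjusted p = 0.983), -0.16 for ML vs EL (0.23, 0.606) and -0.15 for ML vs LP (0.23, 0.717). From LP to EL 11 cows were higher and 5 lower, and the 5 included falls from 21.7 to 4.45 CPM in cow 829 and from 13.95 to 3.54 CPM in cow 3434. In muscle the values were 0.06, 0.12 and 0.18, with adjusted p between 0.623 and 0.803 over the contrasts. The spread between cows did not differ between time-points in either tissue (p between 0.152 and 0.887 by the test that swaps time-points within cows).

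Over tissues and time-points the order of the medians was, for TNFRSF10D, liver ML, LP and EL and then muscle ML, EL and LP, where time-points within a tissue did not differ beyond their spread and the tissues did not overlap. CPM are scaled within each tissue, so an order across tissues also holds that scaling. For TNFRSF12A it was muscle LP, ML and EL and then liver EL, ML and LP, and for TNFRSF6B liver EL, muscle EL, liver ML, liver LP, muscle LP and muscle ML. Time-points of a tissue that are neighbours in these orders differed only where a time contrast above passed, and the ranges of TNFRSF6B overlapped in every pair. The change over time was also compared between tissues, as liver change minus muscle change. None of the 3 genes was called, against 28.7%, 39.2% and 9.74% of 14236 genes for EL vs LP, ML vs EL and ML vs LP (17.9%, 25.4% and 5.56% of 20793 without the gene filter, the fit that holds TNFRSF6B). For TNFRSF6B the difference was 1.26 (standard error 0.79, adjusted p = 0.324 with edgeR's test) for EL vs LP. For TNFRSF12A it was 0.56 (standard error 0.55, adjusted p = 0.477).

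The genotypes were compared at each time-point. The study names TNF receptors as up-regulated in Fert+ cows when it compares the genotypes in liver at EL, on these same libraries. Its text prints them as TNFSR6D, TNFSR10B and TNFSR12A, without identifiers. That contrast is therefore no independent evidence for the genes followed here. In liver at EL the 8 Fert+ cows had a TNFRSF10D level of 11.9 ± 8.92 CPM, against 4.94 ± 2.75 CPM for the 8 Fert- cows (mean ± SD). The ML levels were 8.89 ± 3.66 and 4.89 ± 2.19 CPM, and those at LP 8.45 ± 4.41 and 7.51 ± 6.69 CPM. The groups overlapped each time, with 7 of 8 Fert+ cows above the Fert- median at EL and 6 of 8 at ML. Its log2 fold change was 1.26 (standard error 0.43, adjusted p = 0.379 with edgeR's quasi-likelihood test) at EL, 0.86 (0.30, 0.305) at ML and 0.16 (0.47, 0.982) at LP, and edgeR called 0 of 13047, 13235 and 12872 genes (0% each). At an unadjusted p under 0.05 there were 1530, 1640 and 842 genes, and DESeq2 called 12, 77 and 0. Exact permutation of the 16 cows gave unadjusted p of 0.0412 at EL and 0.0275 at ML (0.0525 and 0.0160 without cow 3847). This permutation test was run for each gene, tissue and time-point. Except for TNFRSF10D in muscle at LP and ML, all other p of this test were between 0.124 and 0.946. Across the batch A libraries alone the log2 fold changes of liver TNFRSF10D were 1.16 at EL and 1.05 at ML (adjusted p = 0.504 and 0.325 with edgeR's test).

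In muscle the genotype difference of TNFRSF10D had opposite signs at LP and ML, and neither passed edgeR's test (log2 fold changes of 0.65 and -0.49, adjusted p = 0.7498 and 0.669). The LP level of Fert+ cows was 0.669 ± 0.281 CPM and that of Fert- cows 0.417 ± 0.124 CPM (n = 8 each, exact permutation p = 0.0407, unadjusted). At ML these were 0.496 ± 0.192 and 0.698 ± 0.182 CPM (exact permutation p = 0.0457), and only 1 of 8 Fert+ cows was above the Fert- median. Without cow 3847 these p were 0.0704 and 0.0833, and with a pseudocount of 0.1 that at LP was 0.0586. The Fert+ change from LP to ML minus that of Fert- cows was -1.10 (standard error 0.38) with an unadjusted p of 0.0063 and an adjusted p of 0.919 in edgeR's interaction test, which called 0 of 12675 genes (0%) and gave 492 an unadjusted p under 0.05. These values rest on 4 to 19 read pairs a library.

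For liver TNFRSF12A and for TNFRSF6B in both tissues the Fert+ means at EL moved with cow 3847. Fert+ cows had 12.2 ± 32.01 CPM of TNFRSF6B in liver where Fert- cows had 0.767 ± 1.70 CPM, and Fert+ cows without cow 3847 (n = 7) were at 0.868 ± 0.891 CPM. Its log2 fold change of 3.98 (standard error 1.53, adjusted p = 0.424 with edgeR's test) was 0.23 without that cow and 6.10 without Fert- cow 164. For liver TNFRSF12A the Fert+ level was 2.79 ± 5.08 CPM and the Fert- level 0.892 ± 0.558 CPM. Without cow 3847 its Fert+ mean was 0.9999 ± 0.532 CPM (n = 7) and the log2 fold change moved from 1.62 (standard error 0.70, adjusted p = 0.397 with edgeR's test) to 0.17. TNFRSF6B in muscle at EL had a log2 fold change of 1.75 (standard error 0.78, adjusted p = 0.483 with edgeR's test), and of 0.57 without cow 3847. For muscle TNFRSF12A at EL the Fert+ level was 13.9 ± 13.1 CPM and the Fert- level 5.01 ± 4.13 CPM, with 5 of 8 Fert+ cows above the Fert- median. That difference was 1.46 (standard error 0.69, adjusted p = 0.419 with edgeR's test, where 0.00831% of 12035 genes were called, and 0.00544% with no gene filter) and stayed between 1.14 and 1.77 whichever cow was left out. Without the batch B libraries it was 2.20 (adjusted p = 0.342), while liver TNFRSF12A and TNFRSF6B at EL were at log2 fold changes of 0.27 and 0.22 without them. At LP and ML the genotypes did not differ beyond their spread for these genes, with edgeR's log2 fold changes between -0.56 and 0.52.

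With edgeR's exact test under one common dispersion for all genes, the reading of the study's method used here, TNFRSF10D, TNFRSF12A and TNFRSF6B all passed in liver at EL (adjusted p = 6.6e-04, 2.4e-05 and 6.7e-28), where 2.31% of 13047 genes did, TNFRSF6B in the fit with no gene filter. TNFRSF10D also passed in liver at ML (adjusted p = 0.00263, with 2.11% called) and TNFRSF12A and TNFRSF6B in muscle at EL (7.5e-08 and 1.8e-05, with 3.64% of the genes passing the filter called, TNFRSF6B again in the fit with no gene filter). This exact test was not repeated without cow 3847, and its share of genes called with no gene filter was not counted. None of the 3 passed it in liver at LP (2.38% called) or in muscle at LP and ML (1.79% and 1.78% called). That test gives every gene the same spread between cows. The liver values at EL had a coefficient of variation over the 16 cows of 350.3% for TNFRSF6B, 197.1% for TNFRSF12A and 86.9% for TNFRSF10D. Without cow 3847 these were 164.6%, 56.1% and 90.2%. The genotype by time interactions of the 3 genes were not called in either tissue, where edgeR called 0% of 13815 liver genes in each contrast and at most 0.0158% of 12675 muscle genes (0.00512% with no gene filter), with the largest value for TNFRSF6B in liver from LP to EL (2.70, standard error 1.34, adjusted p = 0.425 with edgeR's test). The genotype by time and tissue by time fits were not repeated without cow 3847.

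Relations between the genes over the 16 cows were tested in a family of 45 on log2(CPM + 1). In liver at EL TNFRSF12A and TNFRSF6B had Pearson's r of 0.945 (permutation p = 5.1e-04, adjusted p = 0.0198) and Spearman's rho of 0.594 (permutation p = 0.0170, adjusted p = 0.179). Pearson's r was 0.680 without cow 3847 and 0.467 without cows 164 and 3847, the cows farthest from the median. The size of this relation thus rests on those samples. At LP the same pair in liver had r of 0.653 (permutation p = 0.00554, adjusted p = 0.0623) and rho of 0.708 (permutation p = 0.00322, adjusted p = 0.0725). Without cows 419 and 996, the farthest at LP, r was 0.622. TNFRSF6B in liver and in muscle at EL had r of 0.895 (permutation p = 0.0034, adjusted p = 0.051) and rho of 0.612 (p = 0.0135, adjusted p = 0.179), and r was 0.262 without cows 164 and 3847. The level of a cow at LP went with its level at ML for TNFRSF6B in muscle (r = 0.769, permutation p = 8.8e-04, adjusted p = 0.0198; rho = 0.759, p = 9.4e-04, adjusted p = 0.0423), with r of 0.485 without cows 164 and 426. No other relation of the family had an adjusted p under 0.05.

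**Figure D3:**
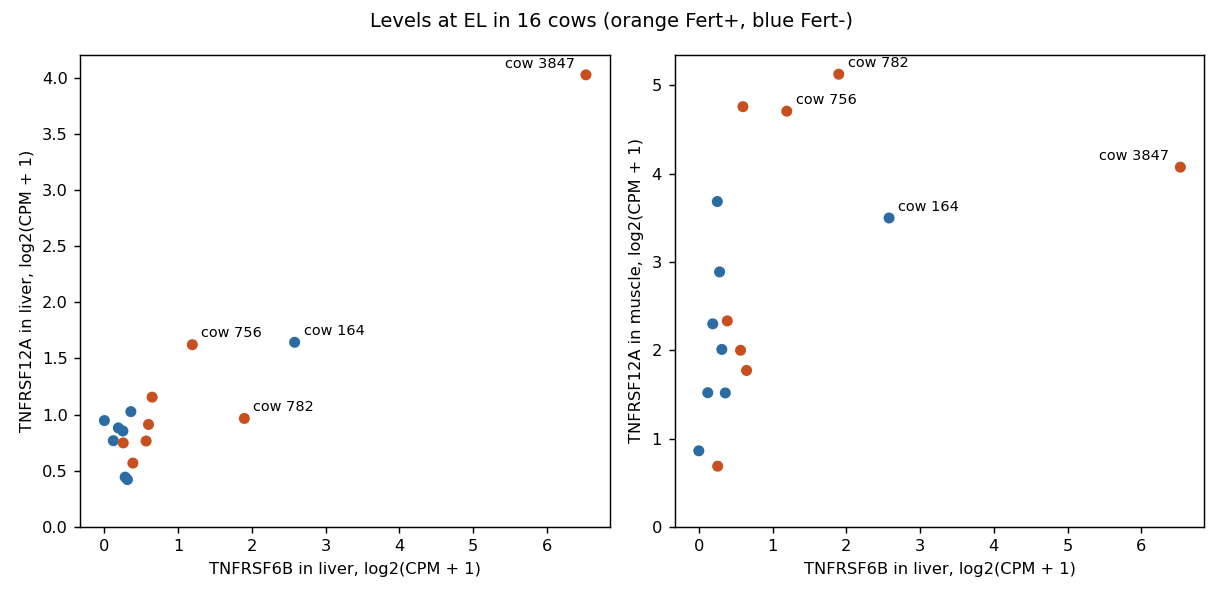
Levels at EL in 16 cows as log2(CPM + 1): TNFRSF6B in liver on the horizontal axes against TNFRSF12A in liver (left) and in muscle (right), with 1 point per cow, Fert+ in orange and Fert- in blue. Cow 3847 lies far to the right in both panels, and the other labelled cows (164, 782 and 756) have the next highest TNFRSF6B levels in liver.

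The cows with the highest TNFRSF6B in liver at EL (3847, 164, 782 and 756) were among the 6 with over 10 CPM of TNFRSF12A in muscle at that time. Over 16 cows this relation had r of 0.478 (permutation p = 0.0420, adjusted p = 0.234) and rho of 0.615 (p = 0.0130, adjusted p = 0.203) in a family of 18 relations across tissues, chosen after the values were seen. Pearson's r was 0.732 without cows 164 and 3847. None of the 18 passed the adjustment.

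By a rule that takes the 5 genes with the highest Pearson correlation over the 48 libraries of a tissue, the genes most like TNFRSF12A in muscle after removal of time-point means were DNAJB5 (r = 0.813), a heat shock protein of the DnaJ family, C12ORF2 (0.793), NUDT4 (0.774), a diphosphoinositol polyphosphate hydrolase, and ENSBTAG00000001415 and ENSBTAG00000016185, which have no symbol here. These changed by at most 0.01 without cow 3847 (between 0.758 and 0.813, 45 libraries). On values with the time-point means kept, CMYA1, an actin-binding protein of striated muscle, was among the 5 (r = 0.713). In liver the gene most like TNFRSF12A was AEN (r = 0.897), an apoptosis-enhancing nuclease, and the genes most like TNFRSF6B were TES (0.909), a focal adhesion protein, RCN2 (0.902), a calcium-binding protein of the secretory pathway, and SUCLA2 (0.887), a subunit of succinyl-CoA synthetase. Without cow 3847 these fell to 0.693, 0.640, 0.679 and 0.569. TNFRSF6B in muscle went with FAM102A (0.724, and 0.278 without cow 3847) and, on values with time-point means kept, with PTX3 (0.703, and 0.0998), a pentraxin of innate immunity. TNFRSF10D in muscle went with SNAI1 (0.693), a transcription factor, ADAMTS4 (0.629), an aggrecanase, APOLD1 (0.593) and CCNL1 (0.590), and in liver the 5 genes most like it have no symbol here, with r between 0.549 and 0.616. Libraries of 1 cow are not independent, and the correlations over libraries are a description without a test.

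Symbols were taken from the study's supplement, which lists its genes differing between the genotypes, and 2161 of 24616 identifiers had one. The genes with a symbol may therefore not represent the lists they belong to. Among 28 receptors of the TNF receptor superfamily listed for comparison, 6 had a symbol, and none of the listed ligands or adaptors had one. The other 3 were TNFRSF11B, the soluble decoy for RANKL known as osteoprotegerin, TNFRSF21, a receptor with a death domain known as DR6, and EDA2R, the receptor of ectodysplasin A2. EDA2R was listed at 0 in 47 of 48 liver libraries. In muscle it ranged from 0 to 1.18 CPM (median 0.394) at LP, 0.385 to 13.4 CPM (median 2.31) at EL and 0.142 to 1.62 CPM (median 0.665) at ML. It rose from LP to EL by 3.05 on the log2 scale (standard error 0.32, adjusted p = 2.0e-09 with edgeR's quasi-likelihood test, higher in 15 of 16 cows) and fell by 2.11 from EL to ML (standard error 0.30, adjusted p = 2.4e-07).

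TNFRSF11B in muscle rose from LP to EL by 1.03 (standard error 0.23, adjusted p = 2.9e-04 with edgeR's test, higher in 14 of 16 cows) and was still higher at ML than at LP (0.98, standard error 0.23, adjusted p = 0.00613). TNFRSF21 in liver fell from LP to EL by 0.40 (standard error 0.10, adjusted p = 0.0271, lower in 13 of 16 cows) and rose by 0.40 from EL to ML (standard error 0.10, adjusted p = 0.00145). The receptors that passed the gene filter hold TNFRSF10D and TNFRSF12A but not TNFRSF6B, so these lists are not independent of the values above. Of these receptors 2 of 5 (EDA2R and TNFRSF11B) rose and none fell in muscle from LP to EL. Their median log2 fold change was 0.58 beside 0.01 over all genes, of which 30.4% rose and 27.9% fell. That median is the value of TNFRSF12A itself, which was not called. In liver 0 of 4 rose and 1 fell, with a median of -0.15 beside 0.01, where 1.06% of all genes rose and 1.42% fell. From EL to ML 2 of 4 rose in liver (median 0.12 beside -0.01, with 21.3% of all genes rising and 21% falling) and 1 of 5 fell in muscle (median -0.04 beside 0.01, with 31.7% rising and 31.9% falling). Of the 20 genes of the NF-kB list only BCL3, a nuclear co-factor of NF-kB, had a symbol. In liver it fell from EL to ML by 0.94 on the log2 scale, where 21% of all genes fell. It was higher by 1.02 at EL and by 0.09 at ML than at LP there. BCL3 was not called in these or the other time contrasts.

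**Figure D4:**
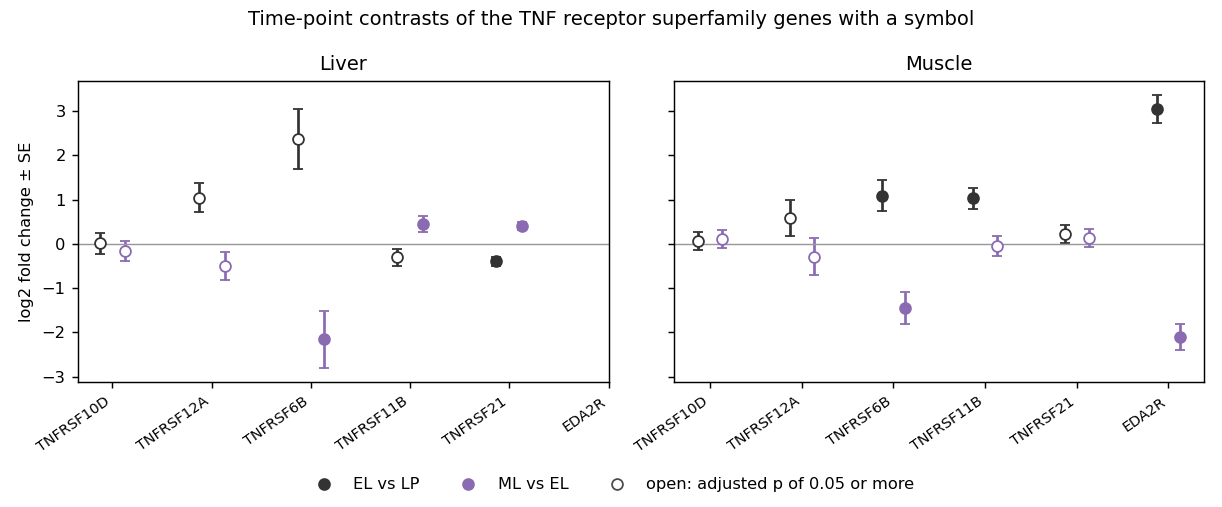
Log2 fold changes between time-points (edgeR, points) with their standard errors (bars) for the 6 TNF receptor superfamily genes with a symbol, in liver (left) and muscle (right); filled points have an adjusted p under 0.05 and EDA2R is not drawn in liver, where it was at 0 in 47 of 48 libraries. EDA2R in muscle had the largest change drawn, 3.05 from LP to EL.

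Members of some lists of cell type markers were called between the same time-points. A biopsy mixes cell types, and more cells of a type and more RNA per cell cannot be told apart. The 5 neutrophil markers with a symbol out of 10 summed in liver to between 10.3 and 40.6 CPM at LP, 13.04 and 331.6 at EL and 16.6 and 177.2 at ML, and CTSG was at a median count of 0. Cow 164 had the 331.6 CPM and cow 3847 had 127.6 CPM at EL. In muscle they summed to at most 3.18 CPM at LP, 16.3 at EL and 6.002 at ML, and the 16.3 CPM were those of cow 3847. Over cows in muscle at EL this sum and TNFRSF6B had r of 0.813 (permutation p = 0.00573, adjusted p = 0.0688 over 12 relations with marker sums) and rho of 0.512 (p = 0.0443, adjusted p = 0.266), with r of 0.679 without cows 3445 and 3847. Without cow 3847 alone, r was 0.381 and rho 0.407. Of the 4 neutrophil identifiers tested in liver none was called from LP to EL. From EL to ML 1 rose and 2 fell, beside 21.3% of all genes rising and 21% falling. Both tested in muscle (LTF and S100A12) rose from LP to EL, beside 30.4% of all genes. Both fell from EL to ML, beside 31.9% of all genes, so such calls are common there.

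The 4 macrophage markers out of 10 were lowest in cow 3847 in liver at EL (408.2 CPM, with a median of 657.9 over 16 cows). The hepatocyte sum of that library was 231070 CPM, above 13 of the 16 cows. Where 27.9% of all genes fell in muscle from LP to EL, 12 of 13 skeletal muscle identifiers fell (median log2 fold change -1.08) and all 4 fibroblast and matrix markers fell (median -1.04). Myogenic markers split, with MYF6 rising by 1.51 and NCAM1 and MYOG falling by 1.01 and 1.04. The summed skeletal muscle markers at EL had r of 0.343 with TNFRSF12A in muscle (permutation p = 0.193, adjusted p = 0.290; rho = 0.297, p = 0.262, adjusted p = 0.630), and r was -0.0604 without cows 430 and 782. No neutrophil, macrophage, lymphocyte, erythroid, skeletal muscle, fibroblast and matrix, endothelial, adipocyte or cholangiocyte marker was called in liver from LP to EL. In that order 4, 4, 1, 1, 2, 4, 3, 2 and 3 identifiers were tested, and 2.48% of all genes were called. Median log2 fold changes were 1.45 for the neutrophil and 0.01 for the cholangiocyte list, and between -0.77 and -0.03 for the others. Lists of this size cannot show that no cell type changed. Of the 12 hepatocyte markers 4 fell, beside 1.42% of all genes. They were the plasma proteins TF, TTR and AHSG and the cytochrome P450 CYP2E1 (log2 fold changes of -0.57, -0.94, -0.67 and -1.001 in that order). From EL to ML in liver 3 of 4 macrophage, 3 of 4 fibroblast and matrix, 2 of 3 endothelial, 2 of 3 cholangiocyte and 5 of 12 hepatocyte markers rose, beside 21.3% of all genes, and 4 hepatocyte markers fell. In muscle from LP to EL VWF, an endothelial glycoprotein, rose by 0.51, where 30.4% of all genes rose. CLDN5, an endothelial tight junction protein, and ADIPOQ, an adipocyte hormone, fell there by 0.39 and 0.92, where 27.9% of all genes fell. The part of these cell types in the receptor values was not tested.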

How the data were processed

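Polyadenylated RNA from 48 liver and 48 muscle biopsies was sequenced with the TruSeq v2 kit. The authors trimmed the reads, aligned them with STAR to the UMD_3.1 bovine genome and deposited one table of raw counts per library, made with featureCounts, that holds read pairs per gene for 24616 genes (CASAVA 1.8 is also named in the submitters' processing notes). Tables of the whole series hold 96 columns of counts with no sample names, which were not mapped to samples and were not used. Some of the muscle columns hold other counts than the per-library tables, and which version of those libraries is meant could not be settled. Of the gene identifiers, 2161 had a symbol in the study's supplement, and no gene sequence was used here.

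CPM were computed from the deposited counts with edgeR's TMM factors over the 48 libraries of a tissue. Time contrasts, genotype by time and tissue by time were fitted to all genes passing filterByExpr with the quasi-likelihood test of edgeR 4.0.16 (limma 3.58.1, R 4.3.3), with cow as a block, and Fert+ was compared with Fert- in 8 against 8 cows. P-values were adjusted by Benjamini-Hochberg with a threshold of 0.05. A gene that the filter removed was read from the fit without it. The cow number marks 1 animal. After group means were removed, libraries of 1 cow correlated above 0.1 in 39 of 48 pairs in liver and 42 of 48 in muscle (median r 0.255 and 0.253, against -0.047 and -0.031 for different cows). Each biopsy is a separate sample, and no 2 libraries of a group agreed within sampling noise (336 pairs, lowest chi-square per gene 18.15).

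Exact permutation tests of the time contrasts and genotypes (two-sided, on log2(CPM + 1), NumPy 2.4.6) had a smallest p of 3.1e-05 over 16 cows and 1.6e-04 for 8 against 8. The spread test ran over all swaps after each time-point was centred on its own mean, so its p are approximate. These tests, and the relations with marker sums and across tissues, were chosen after seeing the data. Correlations used 100000 permutations, and Spearman's rho came from SciPy 1.17.1. Alternatives were no block, RLE size factors, no gene filter, DESeq2 1.42.0, the exact test with 1 common dispersion, no batch B libraries, batch as a term, a pseudocount of 0.1 and each cow left out. Genes named were the 3 receptors, up to 4 per list, tissue and direction with the smallest adjusted p for EL vs LP, all receptors with a symbol, and the 5 genes most alike. The 3 receptors and all lists were chosen with earlier results of these data known. The scripts were tested on simulated data.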

Additional observations from a re-analysis of the deposited data

Results flagged for a closer look

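In each group of 8 cows the highest and lowest log2(CPM + 1) of the 3 genes were compared with the others of the group by Dixon's criterion (gap to the nearest sample over the range, at the 95% level), in 36 groups, of which chance flags about 1 in 20. TNFRSF6B of cow 3847 stood apart from the other Fert+ cows at EL, with 91.4 CPM in liver and 4.15 CPM in muscle. TNFRSF12A of the same cow stood apart in liver at EL, with 15.3 CPM. TNFRSF6B of Fert- cow 164 stood apart in liver at EL with 4.98 CPM, and TNFRSF10D of Fert- cow 1179 in muscle at EL with 1.14 CPM. The 5 values found on this log2 scale are all at EL, and 3 are from cow 3847. The criterion was not applied to untransformed CPM.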

How the results depend on the processing

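The cow block pairs libraries of 1 animal. Without the block, TNFRSF12A passed for EL vs LP in liver (1.49, adjusted p = 0.0342 with edgeR's test) and muscle (0.96, 0.0397) and for ML vs EL in liver (-1.05, 0.0293), and TNFRSF6B passed for EL vs LP in liver (4.28, 0.0145) and for tissue by time (3.15 for EL vs LP, -2.97 for ML vs EL). Without the block, values near 0 changed sign for TNFRSF10D in liver EL vs LP (-0.053) and TNFRSF6B in liver ML vs LP (-0.11), and 1 gene was called for muscle genotype by time EL vs LP in place of 2. The block changed no other call of the 3 genes. DESeq2 called TNFRSF12A (1.02) and TNFRSF6B (1.83) for EL vs LP in liver. The exact test with common dispersion called TNFRSF10D in liver at EL (1.26) and ML (0.86), TNFRSF12A in liver (1.62) and muscle (1.46) at EL, and TNFRSF6B in liver (3.98) and muscle (1.76) at EL. Without the batch B libraries the sign changed for TNFRSF10D (liver EL vs LP -0.064, muscle ML vs EL -0.012), TNFRSF12A (muscle genotype LP -0.13, ML -0.078) and TNFRSF6B (liver ML vs LP -0.32, liver genotype by time ML vs EL 0.27). With no gene filter muscle genotype LP of TNFRSF12A was -0.00080. Without cow 3847 the permuted differences changed sign for TNFRSF12A in muscle (genotype LP -0.047, ML 0.0081, ML vs EL 0.0101) and TNFRSF6B (muscle genotype LP -0.0091).

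Called genes for liver EL vs LP numbered 332, and 889 with DESeq2, 193 with no filter, 0 without batch B (fewer libraries) and between 8 and 1468 with 1 cow left out. Liver ML vs LP had 1344 to 2356. For the genotypes DESeq2 called 12 and 77 in liver at EL and ML and 27, 157 and 14 in muscle at LP, EL and ML, and the exact test with common dispersion 306, 301 and 279 in liver and 214, 438 and 214 in muscle. Muscle EL had 0 without batch B. With 1 cow left out, muscle had 0 to 4 at LP, 0 to 7 at EL and 0 to 2 at ML. Muscle genotype by time EL vs LP had 1 with no filter and 13 without batch B. Ranges with 1 cow left out that changed a call or sign were, for TNFRSF10D, -0.083 to 0.19 (liver EL vs LP), -0.24 to 0.018 (liver ML vs LP) and -0.083 to 0.13 (muscle EL vs LP). For TNFRSF12A they were 0.70 to 1.15 (liver EL vs LP) and, for the genotypes, -0.29 to 0.034 (liver LP), -0.13 to 0.12 (muscle LP) and -0.33 to 0.31 (muscle ML). For TNFRSF6B they were 1.55 to 2.75 (liver EL vs LP), -0.0074 to 0.46 (liver ML vs LP), 0.68 to 1.24 (muscle EL vs LP) and -0.30 to 0.53 (muscle genotype LP). The cause of these changes was not tested. Counts under 10 limit TNFRSF6B in both tissues, TNFRSF10D in muscle and TNFRSF12A in liver.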
